A study of Mus musculus with 13 samples.

Results

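The 8 genes described here mark mesothelium, the single layer of flat cells that lines the body cavities and covers the organs in them, the uterus included. They are Msln, Muc16, Bnc1, Upk3b, Upk1b, Lrrn4, Wt1 and Calb2, taken as the array features whose only gene symbol is one of these names. Each symbol had exactly 1 such feature, so all 8 genes were found, among 30142 genes with 1 symbol and 65929 features in all. Endometrium of 13 female C57BL/6 mice was measured on Affymetrix arrays. All mice had been ovariectomized at 6 to 8 weeks of age and were then kept for 12 weeks under 1 of 4 treatments, so ovary removal is shared by every group, the controls included. MIX mice carried an estradiol pellet under the skin and ate the high-fat diet (n = 3), E2 mice carried the pellet and ate chow (n = 4), HD mice ate the high-fat diet without a pellet (n = 3), and CON mice ate chow without a pellet (n = 3). The uterus was opened lengthwise and scraped with the back of a scalpel, so the sample is what came off the wall and not a sorted cell type. The design asks how estradiol and diet, alone and together, change this tissue once the ovaries are gone. Fewer cells of a type and less RNA per cell cannot be told apart in such bulk samples.

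Mesothelial cells derive from mesoderm but keep the keratins and junctions of an epithelium, and they secrete the film that lets organs slide past each other. On the uterus they form the outer serosal surface, on the far side of the muscle wall from the endometrium. Mesothelin, encoded by Msln, is anchored to their surface by a lipid and binds the large membrane mucin encoded by Muc16, known in people as the tumour antigen CA125. Wt1 is a zinc finger transcription factor of embryonic mesothelium, kidney and gonad that is also expressed in uterine stroma.

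In the GRCm38.p6 annotation of RefSeq, Msln lies at chr17:25748613-25754378, Muc16 at chr9:18495445-18674821, Bnc1 at chr7:81966657-81992299 and Upk3b at chr5:136038496-136044993. Upk1b lies at chr16:38773182-38800203, Lrrn4 at chr2:132866686-132894010, Wt1 at chr2:105126529-105173614 and Calb2 at chr8:110142526-110168212. Only Lrrn4 and Wt1 share a chromosome. The 250 bases before the start site of the 4 genes with an entry in the RefSeq promoter table (Muc16, Bnc1, Upk3b and Lrrn4) are shown because these 4 varied together over the mice, as described further on. Capitals mark matches, on either strand, to GGTCA (the core of an estrogen receptor half-site), GGAATG (the core bound by TEAD factors) or GATAA (the core bound by GATA factors), and a lower-case stretch holds none.
Muc16: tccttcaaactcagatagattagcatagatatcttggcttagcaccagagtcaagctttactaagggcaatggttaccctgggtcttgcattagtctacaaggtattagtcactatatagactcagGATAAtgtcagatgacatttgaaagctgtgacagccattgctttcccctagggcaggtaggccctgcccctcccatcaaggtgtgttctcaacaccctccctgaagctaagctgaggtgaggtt
Bnc1: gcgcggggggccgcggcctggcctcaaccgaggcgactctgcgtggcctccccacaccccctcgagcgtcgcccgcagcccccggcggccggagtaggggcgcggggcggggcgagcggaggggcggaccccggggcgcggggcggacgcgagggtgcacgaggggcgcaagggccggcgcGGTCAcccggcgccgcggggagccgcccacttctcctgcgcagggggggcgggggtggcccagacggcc
Upk3b: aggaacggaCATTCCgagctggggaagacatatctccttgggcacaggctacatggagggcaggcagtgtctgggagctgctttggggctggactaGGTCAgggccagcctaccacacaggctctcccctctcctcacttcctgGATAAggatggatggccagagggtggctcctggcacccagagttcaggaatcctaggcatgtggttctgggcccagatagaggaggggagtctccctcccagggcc
Lrrn4: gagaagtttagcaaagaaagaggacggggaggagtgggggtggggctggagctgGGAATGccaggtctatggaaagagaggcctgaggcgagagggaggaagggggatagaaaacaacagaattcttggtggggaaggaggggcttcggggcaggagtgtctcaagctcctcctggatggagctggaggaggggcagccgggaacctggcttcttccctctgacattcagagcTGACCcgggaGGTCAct
They come from chr9:18674604-18674853 on the minus strand (Muc16), chr7:81992300-81992549 on the minus strand (Bnc1), chr5:136038246-136038495 on the plus strand (Upk3b) and chr2:132880863-132881112 on the minus strand (Lrrn4). For Muc16 and Lrrn4 the start site of that table lies inside the annotated gene span. With the base before the start counted as -1, GGTCA was found once in Bnc1 (-69 to -65), once in Upk3b (-154 to -150) and as a close pair in Lrrn4 (-17 to -13 on the opposite strand, and -7 to -3). It was not among the letters of the Muc16 window. The full palindrome GGTCANNNTGACC, which contains the half-site, was in none of the 4. GGAATG was found in Upk3b on the opposite strand (-241 to -236) and in Lrrn4 (-196 to -191), and GATAA in Muc16 (-124 to -120) and Upk3b (-106 to -102). These are common words: of 32851 promoter windows of this length, 35.2% held GGTCA, 12.6% GGAATG, 22.6% GATAA and 0.0639% the palindrome. The windows also differed in base composition, with 83.6% G and C in Bnc1, 60.8% in Upk3b, 59.2% in Lrrn4 and 46.4% in Muc16, against a median of 52.4%. A match is a string of letters and says nothing on binding.

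Values are log2 expression, so a difference of 1 is a doubling. In every mouse 7 of the 8 genes lay above the median of that mouse's array (4.48 to 4.71), and Calb2 lay below it in all 13. Of the endometrial markers, all 10 stromal genes measured and 10 of 11 luminal and glandular epithelial genes exceeded the array median in every mouse. So did all 9 smooth muscle genes, all 8 macrophage genes and all 16 further mesothelial genes of a separate list. From other lists, 5 of 6 oviduct and ovary, 5 of 7 urothelial and 8 of 11 squamous genes also did. Exceeding the median is therefore no test of which tissue was sampled. MIX replicate 2 stood apart by its high stromal and endothelial markers, with a mean log2 level of 9.55 over the stromal list, where the other MIX mice lay as low as 7.98. CON replicate 3 had the highest adipocyte markers (5.71, where the other mice of all groups lay at 4.72 to 5.05). Without that mouse the MIX minus CON difference of Msln, described below, was 1.475, against 1.830 with it.

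Msln, Muc16, Bnc1, Upk3b, Upk1b and Lrrn4 followed 1 pattern: highest in mice with a pellet, intermediate on the high-fat diet alone and lowest in CON. None of them passed the threshold, set at 0.05 for p-values of limma adjusted by Benjamini and Hochberg across the 65929 features, in any comparison, so what follows are measured levels and sizes and not called changes. Wt1 did not share the pattern, and Calb2 stayed near background.

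The surface pair was measured as follows. Msln was at 8.19, 8.71 and 9.42 in MIX, at 8.89, 7.96, 7.65 and 8.28 in E2, at 7.51, 7.74 and 7.93 in HD, and at 7.41, 6.77 and 6.65 in CON. Every mouse of the other 3 groups exceeded every CON mouse, and the MIX mice also lay above all HD mice. The partner mucin Muc16 was at 6.11, 6.56 and 5.99 in MIX, at 6.68, 6.46, 5.78 and 6.26 in E2, at 5.50, 5.17 and 5.47 in HD, and at 5.28, 4.82 and 5.29 in CON. All 7 mice with a pellet had more Muc16 than all 6 without one, whereas HD and CON overlapped. Group means for Msln were 8.77 ± 0.61 in MIX, 8.19 ± 0.53 in E2, 7.73 ± 0.21 in HD and 6.94 ± 0.41 in CON (SD, n = 3, 4, 3 and 3). For Muc16 they were 6.22 ± 0.30 in MIX, 6.30 ± 0.38 in E2, 5.38 ± 0.18 in HD and 5.13 ± 0.27 in CON.

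Both uroplakin genes of the set encode membrane proteins first known from the plaques of the bladder lining. Upk3b, which marks mesothelium in mouse, was at 9.65, 10.30 and 10.09 in MIX, at 10.48, 9.89, 9.27 and 9.85 in E2, at 9.35, 9.24 and 9.49 in HD, and at 9.30, 9.10 and 8.89 in CON. Only 1 E2 mouse, replicate 3 at 9.27, reached down into the CON range. The tetraspanin gene Upk1b was at 9.09, 9.69 and 10.13 in MIX, at 10.11, 9.30, 8.71 and 9.26 in E2, at 8.81, 9.08 and 8.57 in HD, and at 8.58, 8.29 and 7.95 in CON. E2 and MIX mice all exceeded CON, and HD replicate 3 fell just below the highest CON mouse. Lrrn4, a leucine-rich repeat membrane protein, was at 8.42, 8.54 and 8.97 in MIX, at 9.56, 8.46, 7.47 and 8.59 in E2, at 8.12, 7.98 and 7.79 in HD, and at 7.92, 7.33 and 6.91 in CON. It had the widest spread within a group, 0.85 (SD) in E2, where replicate 1 was the highest and replicate 3 the third lowest of the 13 mice.

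Of the 2 transcription factor genes, Bnc1, which encodes the zinc finger protein basonuclin 1, followed the surface genes. It was at 8.15, 8.76 and 8.75 in MIX, at 8.70, 7.82, 7.80 and 7.88 in E2, at 7.69, 7.80 and 7.52 in HD, and at 7.54, 7.18 and 6.84 in CON. As with Muc16, the lowest mouse with a pellet (E2 replicate 3) lay above the highest without one (HD replicate 2), here so narrowly that both are 7.80 when rounded. Wt1 was at 7.02, 8.53 and 7.57 in MIX, at 7.42, 7.63, 7.22 and 8.05 in E2, at 7.20, 7.41 and 7.04 in HD, and at 7.43, 7.51 and 7.07 in CON. Its highest and its lowest mouse were both MIX, and the 4 groups overlapped throughout. Calb2, the gene of the calcium-binding protein calretinin that stains human mesothelium, ranged from 3.12 to 3.29 over all mice, at the 19.8th percentile of feature means. That is below the array medians of 4.48 to 4.71, so no difference is given for it.

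**Figure D1:**
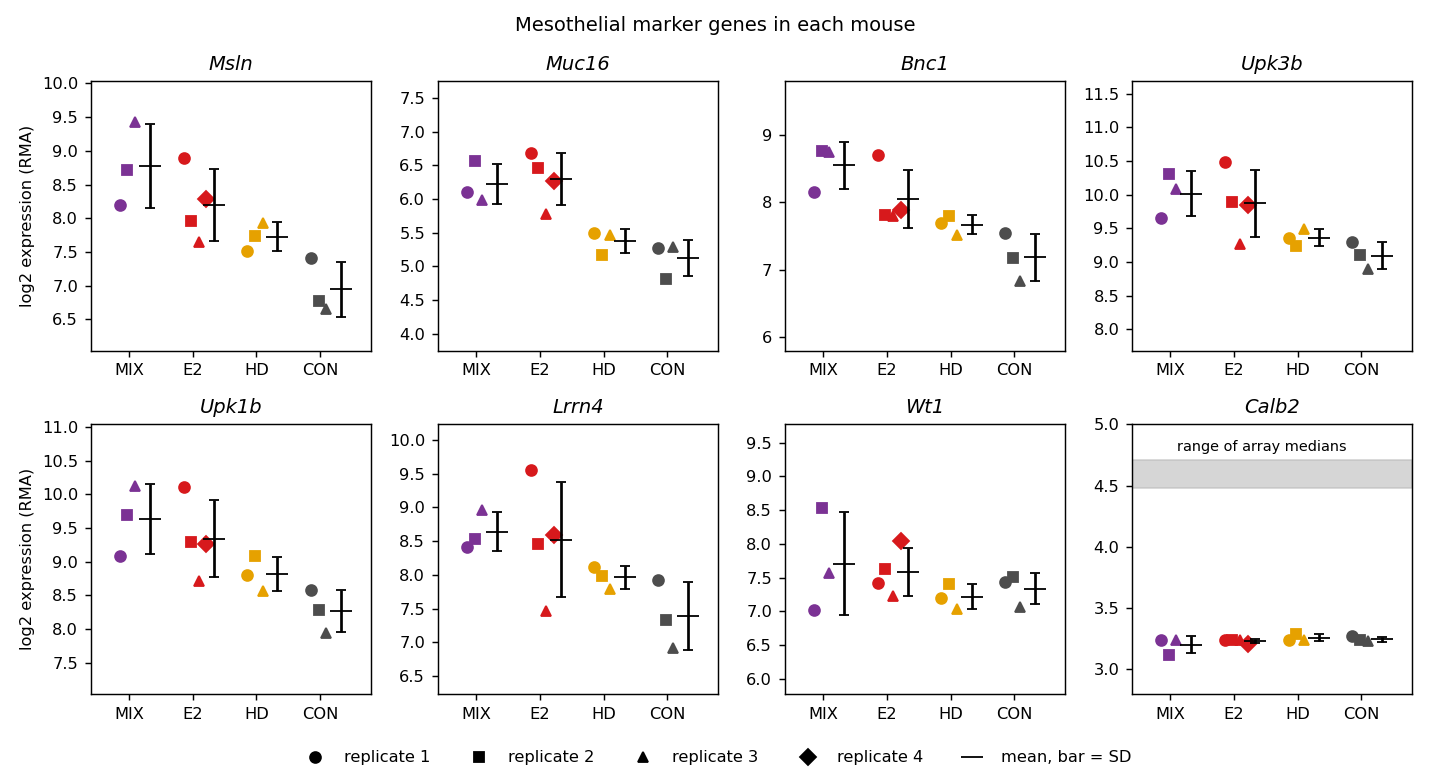
Log2 expression (RMA) of the 8 mesothelial marker genes, 1 point per mouse, with MIX, E2, HD and CON from left to right, symbols for the replicate number, and the group mean with its SD. Msln, Muc16, Bnc1, Upk3b, Upk1b and Lrrn4 step down from the groups with a pellet to CON, Wt1 overlaps in all groups, and Calb2 lies below the grey band of array medians (4.48 to 4.71).

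E2 against CON sets the pellet against none on chow. Msln was higher by 1.25 (SE 0.34, 95% confidence interval 0.49 to 2.02), a 2.38-fold difference, and Muc16 by 1.17 (SE 0.22, interval 0.68 to 1.67), 2.26-fold. Lrrn4 differed by 1.11 (SE 0.40), Upk1b by 1.04 (SE 0.31), Bnc1 by 0.83 (SE 0.23) and Upk3b by 0.77 (SE 0.25). Wt1 differed by 0.25, with an interval from -0.46 to 0.95 that covers both directions, and by -0.024 without E2 replicate 4. The limma test called 0 of the 8 genes and 0 of all features, 0% of 65929 (adjusted p = 1 for each of the 8). An unadjusted p under 0.05 was found for 2651 features, a share below the 0.05 that such a threshold passes when no feature differs. Muc16 had the 13th smallest p of all features (unadjusted p = 0.00032 in limma). Of the 8, 6 were higher at an unadjusted p under 0.05, against 1.93% of all features. E2 lay wholly above CON for 4 of the 8 (Msln, Muc16, Bnc1 and Upk1b), against 3.01% of all features. The median difference was 0.94 over the 8 genes and -0.01 over all features.

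MIX against CON sets both treatments against neither, and here the distances were wider for 5 of the 6 genes. Msln was higher by 1.83 (SE 0.42, interval 0.89 to 2.77), 3.56-fold, with an adjusted p of 0.315 in limma. Bnc1 differed by 1.58 (SE 0.28, adjusted p = 0.188 in limma), Upk1b by 1.58 (SE 0.38), Lrrn4 by 1.44 (SE 0.49), Muc16 by 1.02 (SE 0.27) and Upk3b by 0.95 (SE 0.31). Wt1 differed by 0.36 (SE 0.39), and by -0.051 without MIX replicate 2. None of the 8 was among the 2 features that limma called here (0.00303%), and 6 were higher at an unadjusted p under 0.05, against 3.70% of all features. For the same 6 genes all 3 MIX mice lay above all 3 CON mice, against 5.52% of all features. The median was 1.23 over the 8 genes and -0.03 over all features. Both comparisons share the CON mice, and all MIX mice carry a lettered animal code, so the code style term of the fit, which adjusts the MIX differences, rests on the single lettered mouse of E2, of HD and of CON. Plain differences of means between MIX and CON were 1.37 for Bnc1, 1.36 for Upk1b and 1.25 for Lrrn4, below the fitted values. For Muc16 the plain difference was 1.09, above the fitted value.

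HD against CON isolates the diet without estradiol. Msln differed by 0.78 (SE 0.37, interval -0.03 to 1.60), Lrrn4 by 0.57 (SE 0.43), Upk1b by 0.55 (SE 0.33), Bnc1 by 0.48 (SE 0.24), Upk3b by 0.26 (SE 0.27) and Muc16 by 0.25 (SE 0.24). All 6 values were positive, but each interval included 0, and Wt1 was at -0.12 (SE 0.34), or 0.017 without HD replicate 3. In limma 0 of 8 genes and 0% of features passed, and 1918 features, again a share below 0.05, had an unadjusted p under 0.05. None of the 8 was higher at that unadjusted p (1.99% of all features). Groups stood apart only for Msln, 1 of 8 against 5.58% of all features. Single CON mice moved the smaller values: Muc16 was at 0.10 without CON replicate 2, and without CON replicate 3 Upk3b was at 0.133, Lrrn4 at 0.362 and Msln at 0.567.

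MIX against HD sets the pellet against none on the high-fat diet, and here Bnc1 was higher by 1.10 (SE 0.28), Msln by 1.05 (SE 0.42), Upk1b by 1.03 (SE 0.38), Lrrn4 by 0.87 (SE 0.49), Muc16 by 0.77 (SE 0.27) and Upk3b by 0.69 (SE 0.31). Adjusted p-values from limma were 0.58 to 0.727 for these 6, so 0 of 8 were called, against 3 of all features (0.00455%). Plain differences of means were 0.89 for Bnc1, 0.82 for Upk1b and 0.68 for Lrrn4, below the fitted values, and 0.84 for Muc16, above it. Of the 8, 5 were higher at an unadjusted p under 0.05 (2.41% of all features), and MIX lay wholly above HD for 6 of 8 (3.47%). MIX against E2 sets the diets apart under the pellet. There Bnc1 differed by 0.75 (SE 0.28, unadjusted p = 0.0215 and adjusted p = 1 in limma) and the other 6 genes above background by -0.15 (Muc16) to 0.58 (Msln), with intervals that included 0. These values rested on single mice, with Msln at 0.257 without MIX replicate 3 and Muc16 at -0.039 without that mouse. Plain differences of means between MIX and E2 were 0.51 for Bnc1, 0.30 for Upk1b and 0.13 for Lrrn4. The fit with the code style term gave 0.75, 0.53 and 0.34. The 2 groups overlapped for all 8 genes, where 1.50% of all features had MIX wholly above E2. The limma fit passed 0 features (0%), and 1832, a share below 0.05, had an unadjusted p under 0.05. Bnc1 was the only 1 of the 8 to be higher by that measure (1.25% of all features).

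The pellet difference averaged over both diets uses all 13 mice. It was 1.15 for Msln (SE 0.27, adjusted p = 0.248 in limma), 1.04 for Upk1b (SE 0.24), 0.99 for Lrrn4 (SE 0.31), 0.97 for Muc16 (SE 0.17, adjusted p = 0.156 in limma), 0.97 for Bnc1 (SE 0.18, adjusted p = 0.163 in limma), 0.73 for Upk3b (SE 0.20) and 0.36 for Wt1 (SE 0.25). None of the 8 was among the 11 features called (0.0167%), and 6 were higher at an unadjusted p under 0.05 (3.73% of all features). Without MIX replicate 1, Bnc1 reached an adjusted p of 0.044 in limma, at a difference of 1.067. Only Muc16 and Bnc1, 2 of 8, separated every mouse with a pellet from every mouse without, which 0.344% of all features did. The interaction, MIX minus HD less E2 minus CON, ran from -0.41 (Muc16) to 0.26 (Bnc1) over the 7 genes above background. All 7 intervals included 0 and the narrowest of them spanned -1.20 to 0.39, so a moderate dependence on diet in either direction was not detectable with these mice. For it limma passed 0 features (0%), and the unadjusted p was under 0.05 for 1382, a share below 0.05. By that measure 0 of the 8 genes were higher (0.651% of all features).

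**Figure D2:**
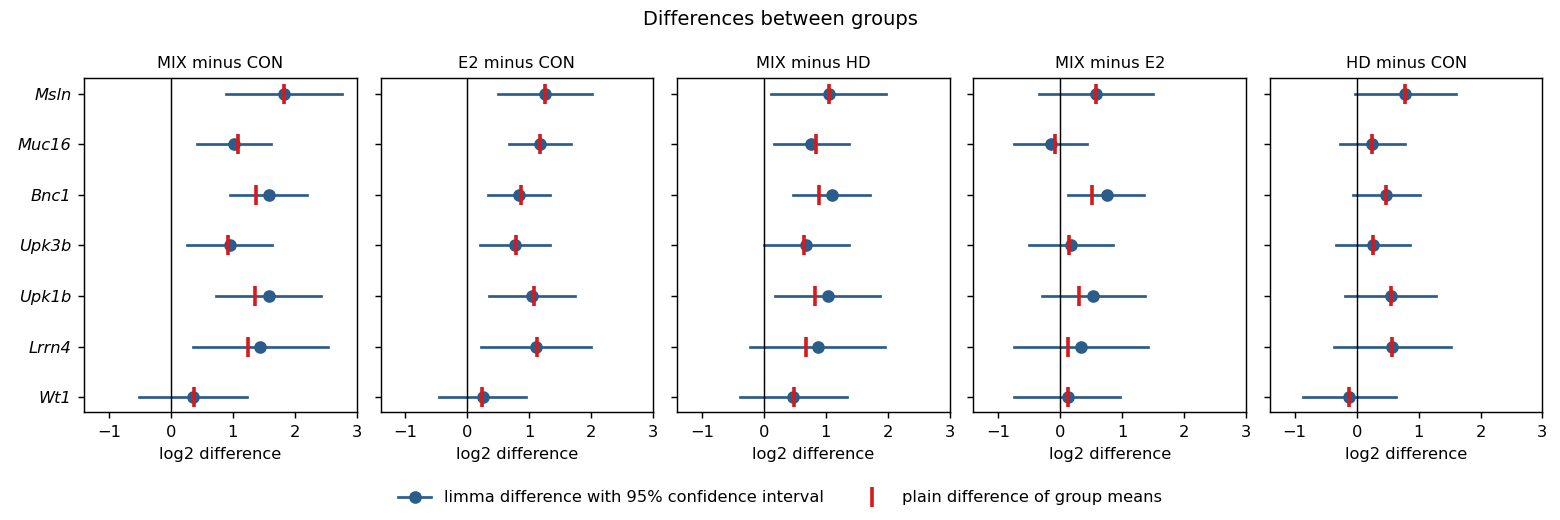
Log2 differences between groups for the 7 genes above background, as limma differences with 95% confidence intervals (blue) and as plain differences of group means (red). Intervals of 6 genes lie above 0 for MIX minus CON and for E2 minus CON, those for HD minus CON all include 0, and Wt1 includes 0 in all 5 panels.

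Titles carry numbered or lettered animal codes, and the differences were compared within each style. Among numbered mice (3 E2 and 2 CON) the E2 minus CON difference was 1.07 for Msln, 1.26 for Muc16, 0.75 for Bnc1, 0.68 for Upk3b, 0.94 for Upk1b and 0.87 for Lrrn4. Between the lettered E2 mouse and the lettered CON mouse it was 1.63 for Msln, 0.96 for Muc16, 1.03 for Bnc1, 0.96 for Upk3b, 1.31 for Upk1b and 1.67 for Lrrn4. The 6 genes kept their direction in both, while Wt1 was at -0.05 among numbered mice and 0.99 among lettered ones. Among lettered mice (3 MIX and 1 CON) MIX exceeded CON by 2.12 for Msln, 1.71 for Bnc1 and 0.92 for Muc16, the smallest of the 6. Each lettered difference from CON rests on CON replicate 3, the only lettered CON mouse and the lowest of all mice for 5 of the 6 genes. The values within each style rest on so few mice that they carry no test.

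Over the 13 mice the 6 genes varied together. They were set apart from Wt1 because they shared the group pattern in these same mice, so correlation among them is partly given by that choice. Across their 15 pairs Pearson's r was 0.76 to 0.96 and Spearman's rho 0.80 to 0.96. In permutation tests adjusted over the 21 pairs of the 7 genes above background, the adjusted p was at most 0.0031 for r and 0.0024 for rho. Without the 2 mice farthest from the median of the first gene, r was 0.67 to 0.95. Part of this is the common order of the groups, so the correlation was also taken on deviations from the group means, where r was 0.36 to 0.91. The permutations shuffled all 13 mice regardless of group, so their p-values include the group differences. No p was computed on the deviations. The 6 pairs that include Wt1 gave r of 0.39 to 0.57 and rho of 0.36 to 0.53, with adjusted p of 0.053 to 0.19 for r and 0.089 to 0.23 for rho in the same permutation tests. Single mice were extreme for many of the genes at once. E2 replicate 1 was the highest of all mice for 3 of the 6 and among the top 2 for 5, MIX replicate 3 was the highest for 2, and CON replicate 3 was the lowest for 5. Without E2 replicate 1 the E2 minus CON difference was 1.019 for Msln, 0.783 for Lrrn4 and 0.574 for Upk3b, all lower than with it.

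A separate list of 16 further genes of mesothelium, which was chosen with earlier results of these data known, was set beside the 8. In E2 against CON 15 of 16 had positive differences, with a median of 0.42, none passing and 5 at an unadjusted p under 0.05 in the positive direction (1.93% of all features). In MIX against CON 14 of 16 were positive, with a median of 0.68 and 9 at such a p (3.70% of all features), and in the pellet average 16 of 16 were, with a median of 0.47. Gpm6a, a membrane glycoprotein gene, averaged 8.76 ± 0.41 in MIX, 8.78 ± 0.49 in E2, 8.05 ± 0.25 in HD and 7.66 ± 0.25 in CON, with a difference of 1.09 (SE 0.25) between E2 and CON. The claudin gene Cldn15, whose product is part of tight junctions, averaged 8.46 ± 0.33 in MIX, 8.09 ± 0.42 in E2, 7.68 ± 0.21 in HD and 7.20 ± 0.25 in CON. Anxa8, an annexin gene, had the widest distance of the list between MIX and CON, 3.16 (SE 0.71, adjusted p = 0.306 in limma). Its MIX minus E2 difference was 1.90 (SE 0.70), where the median was 0.27 over the 16 genes and 0.75 over the squamous list. Which cells its RNA came from was not tested. The keratin genes Krt7 and Krt19, which the endometrial lining also expresses, did not separate the groups. Krt19 averaged 11.55 ± 0.47 in MIX, 11.36 ± 0.28 in E2, 11.53 ± 0.08 in HD and 11.31 ± 0.12 in CON.

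The genes whose profile over the 13 mice was most like the mean profile of the 8 were sought among the 18760 genes that remain when predicted, clone-named, olfactory and vomeronasal receptor symbols are left out. By Pearson's r, given as a description, they were Nkain4 (0.976), Cldn15 (0.968), Srgn (0.961), Gas1 (0.958), Gpm6a (0.947), Scrn1 (0.945), Serpinb6b (0.945) and Itm2a (0.944). Nkain4, Cldn15 and Gpm6a are on the list of further mesothelial genes, and the others are not. Among the 8 themselves, Upk1b lay closest to the mean profile (0.99) and Muc16 farthest of the 6 (0.84), with Wt1 at 0.53 and Calb2 at -0.32.

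**Figure D3:**
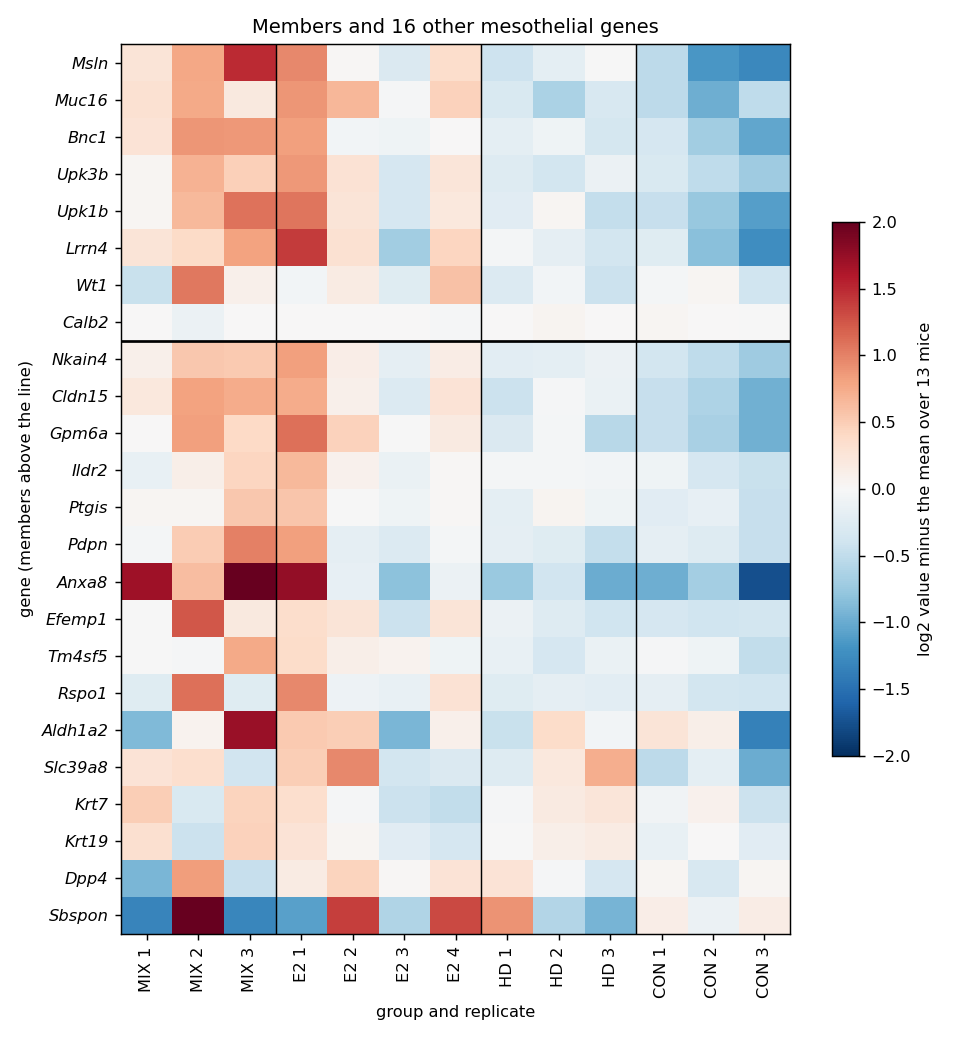
Log2 value of each gene minus its mean over the 13 mice, in colour from -2 to 2, for the 8 marker genes above the line and 16 further mesothelial genes below it, with MIX, E2, HD and CON mice from left to right. E2 replicate 1 and MIX replicates 2 and 3 are red across the first 6 rows and CON replicate 3 is the bluest in 5 of them, while Calb2 is near 0 throughout and Wt1 peaks in MIX replicate 2.

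Markers of other tissues were measured beside these genes, and their part in the differences was not tested. The 7 lists compared with each of the 7 genes above background gave 49 relations, with permutation p-values adjusted over all of them. With the list of further mesothelial genes r was 0.97 for Upk3b, 0.93 for Bnc1, 0.92 for Lrrn4, 0.90 for Msln and 0.80 for Muc16. On deviations from group means these were 0.93, 0.85, 0.85, 0.77 and 0.56. Msln had the same r of 0.90 with the macrophage list, and 0.64 on deviations. Bnc1 had a rho of 0.87 with the mesothelial, squamous and macrophage lists alike, and r of 0.93, 0.79 and 0.84. Whether the correlations with different lists differ was not tested. Upk1b tracked the mean level of the 16 further mesothelial genes (r = 0.97, rho = 0.95, adjusted p = 0.00012 and 0.00033, r = 0.95 without the 2 farthest mice, r = 0.92 on deviations from group means). Its r was 0.82 with the macrophage list (permutation adjusted p = 0.0026, r = 0.42 on deviations). With the squamous list r was 0.75 and rho 0.81 (permutation adjusted p = 0.011 and 0.006, r = 0.50 on deviations), so the tracking was not particular to mesothelial genes. With the stromal list its r was 0.62 and rho 0.61 (permutation adjusted p = 0.055 and 0.065, r = 0.48 without the 2 farthest mice, r = 0.57 on deviations). Wt1 did the reverse. It tracked the stromal list (r = 0.93, rho = 0.91, permutation adjusted p = 0.00012 and 0.00049, r = 0.87 without MIX replicate 2 and E2 replicate 4, r = 0.92 on deviations). It had lower coefficients with the further mesothelial genes (r = 0.62, rho = 0.52, permutation adjusted p = 0.051 and 0.14, r = 0.56 without those mice, r = 0.55 on deviations). Whether the 2 correlations of Wt1 differ was not tested. Its relation to the endothelial list (r = 0.90, rho = 0.83, permutation adjusted p = 0.00055 and 0.004) gave r = 0.67 without the same 2 mice and r = 0.91 on deviations. The tracking by Wt1 was therefore not particular to stromal genes.

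**Figure D4:**
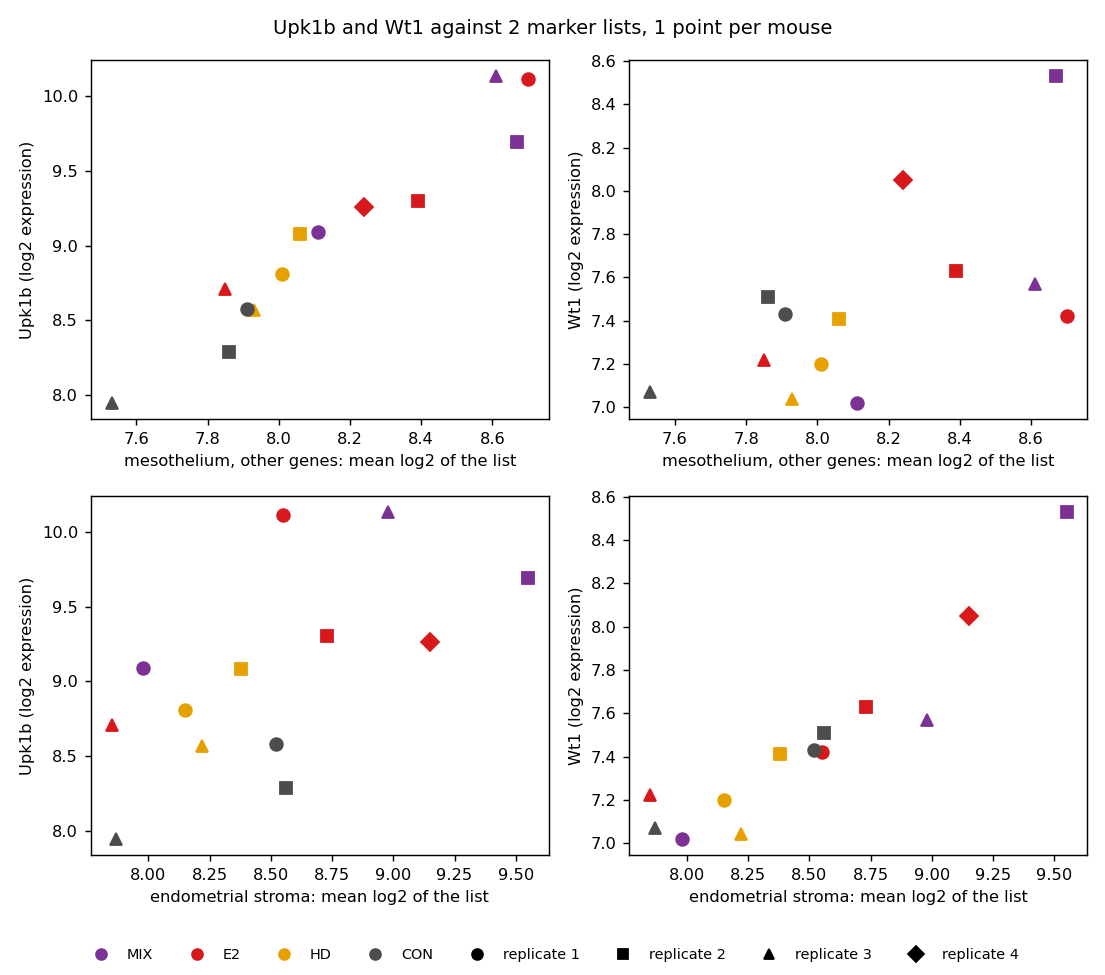
Log2 expression of Upk1b (left) and Wt1 (right) in each mouse against the mean log2 level of 16 further mesothelial genes (top) and of 10 stromal genes (bottom), with groups by colour and replicates by symbol. Upk1b lines up with the mesothelial list (r = 0.97) and Wt1 with the stromal list (r = 0.93), the off-diagonal pairings both having r = 0.62.

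Macrophage markers were also high where the 6 genes were. All 8 had positive differences and were higher in E2 than in CON (median 0.97, 7 of 8 without overlap, against 3.01% of all features), led by the complement gene C1qb (1.59, SE 0.40) and Adgre1, which encodes F4/80 (1.43, SE 0.41), and all 8 were higher in MIX than in CON (median 1.29). None passed. The mean log2 level of the list was 7.58 to 8.82 in MIX, 7.65 to 8.01 in E2, 7.32 to 7.47 in HD and 6.66 to 7.11 in CON. Its r with the 6 genes ran from 0.68 (Lrrn4) to 0.90 (Msln). On deviations from the group means the same r ran from -0.18 (Muc16) to 0.64 (Msln). Markers of macrophages resident in the peritoneal cavity lay at 5.57 to 5.73 in MIX, 5.07 to 5.40 in E2, 4.94 to 5.31 in HD and 4.98 to 5.19 in CON. Of these 7 genes 4 exceeded the array median in every mouse, and Vsig4 did in none. Between MIX and CON 5 of the 7 were higher, with a median difference of 0.10. F5 differed by 2.94 (SE 0.69), Timd4 by -0.22 (SE 0.12) and Cd5l by -0.15 (SE 0.16).

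Squamous epithelial markers were higher in 10 of 11 cases in E2 and in 11 of 11 in MIX, each against CON, with mean levels of 6.73 to 7.97 in MIX, 6.13 to 6.95 in E2, 5.76 to 5.88 in HD and 5.63 to 5.96 in CON. In the pellet average the keratin genes Krt13 (2.54, SE 0.28, adjusted p = 0.0296) and Krt15 (1.66, SE 0.19, adjusted p = 0.04) rose, by limma. Both calls were lost without CON replicate 3, when 0 features passed, and at most 1 held without CON replicate 2 or HD replicate 1, when 1 feature passed. Trp63, the master transcription factor gene of stratified epithelium, rose in MIX against HD (0.84, SE 0.08, adjusted p = 0.0265 in limma), at 5.27, 5.19 and 5.38 in MIX, against 4.39, 4.39 and 4.50 in HD, where it is at or below the array median. That call was lost without HD replicate 1 and without CON replicate 3, when 0 features passed. The mean level of the squamous list had an r of 0.60 (Muc16) to 0.80 (Msln) with the 6 genes. On deviations from the group means that r was -0.08 (Muc16) to 0.60 (Lrrn4). The luminal and glandular list lay at 9.24 to 9.52 in MIX, 8.90 to 9.18 in E2, 8.96 to 9.15 in HD and 9.02 to 9.07 in CON, so every MIX mouse lay above all others. Of its 11 genes 4 were higher in E2 than in CON (median -0.03) and 7 were higher in MIX than in CON (median 0.10). The widest MIX minus CON difference, which lifts the list mean, was that of Spink1 (2.24, SE 1.65), followed by Cldn4 (0.96, SE 0.45). Epcam differed by 0.10 (SE 0.25) and Krt8 by -0.01 (SE 0.20). Smooth muscle genes, which lie between endometrium and serosa, were higher in 1 of 9 cases in E2 against CON (median -0.25) and in 1 of 9 in MIX against CON (median -0.22). The second value depends on the code style term: the median of the plain differences of means between MIX and CON was 0.00, and the list mean was 6.36 to 7.22 in MIX and 6.36 to 7.30 in CON. The r of their mean level with the 6 genes was -0.05 (Lrrn4) to 0.12 (Upk3b).

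Relatives of the 8 genes were set beside them as well. Between E2 and CON 3 bladder-type uroplakin genes did not rise with Upk3b and Upk1b: Upk1a differed by -0.81 (SE 0.69), Upk2 by -0.21 (SE 0.15) and Upk3a by 0.01 (SE 0.10). Upk3bl of the same list differed by 0.39 (SE 0.52), and by 0.64 (SE 0.55) between HD and CON. Between MIX and CON, Upk1a differed by 0.03 (SE 0.84) and the keratin gene Krt20 by 3.46 (SE 1.23), the latter without overlap. In the same list Psca, a lipid-anchored surface antigen gene of several epithelia, differed by 3.38 (SE 0.85, adjusted p = 1 in limma), at 10.34, 8.24, 8.04 and 7.67 in E2, against 6.07, 4.94 and 4.56 in CON. Of 7 other membrane mucin and partner genes, 5 were higher in E2 than in CON, with a median of 0.19. One of them, the epithelial membrane mucin gene Muc13, differed by more than Muc16 did: it was at 9.13, 9.20, 8.56 and 7.60 in E2, against 6.49, 5.14 and 4.66 in CON. Its E2 minus CON difference of 3.16 (SE 0.80) did not pass, and its MIX minus CON difference was 4.96 (SE 0.97). Among 12 transcription factors of coelomic lining or related to Wt1, 6 had positive differences between E2 and CON (median 0.02). The largest belonged to Gata6 (0.68, SE 0.22), a zinc finger factor of mesodermal and endodermal tissues, whose MIX minus CON difference was 1.22 (SE 0.26), and Emx2, a homeobox gene of the urogenital tract, went the other way (-0.31, SE 0.13, and -0.63, SE 0.17). None of these passed.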

How the data were processed

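Arrays were hybridised with biotin-labelled cDNA (Affymetrix WT PLUS kit, 250 ng of RNA per the labels). The authors deposited log2 values per feature. The submitters' processing notes name RMA. RMA corrects background, equalises the arrays and summarises probes, and it compresses differences of dim features. Its version and the array library are not given in the sources consulted. Array pairs correlated at 0.960 to 0.995, and no array copied another. The number of mice limits the precision, since arrays have no depth. Where titles do not say that samples are separate animals, p-values measure the spread between samples only.

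Features were named through the supplied annotation (30604 with 1 symbol, 2146 with several, 33179 unnamed, 827 symbols updated). Promoters came from RefSeq (GRCm38.p6), with entries for 4 of the 8 genes.

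All features were fitted with limma 3.58.1 (lmFit, eBayes; R 4.3.3), using 4 group coefficients, code style as covariate, 8 residual degrees of freedom and Benjamini-Hochberg adjustment over all features, two-sided. The code style term itself passed for 0 features. The fit was tested on simulated data. Correlations used 100000 permutations. The named genes are the 8, the genes of each list that passed (up to 4) or else the 2 with the smallest p, defining genes of other cell types, and the 8 with the most similar profile. The 8 genes and all lists were chosen with earlier results of these data known. Alternatives covered the covariate, a replicate block, the spread estimate, array weights, scaling, a filter on dim features, the groups fitted and each mouse left out.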

Additional observations from a re-analysis of the deposited data

Results flagged for a closer look

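Bnc1 in E2 replicate 1 was at 8.70, where the other 3 E2 mice lay at 7.80 to 7.88. Its gap to the nearest mouse was 0.916 of the range of the group, above the critical value of 0.829 for 4 mice. Without that mouse the E2 minus CON difference of Bnc1 was 0.645, against 0.835 with it. Calb2 in E2 replicate 4 was at 3.21, set apart from 3 nearly identical values (a gap of 1.000 of the range), at a level below the array medians. Chance flags about 1 in 20 such groups.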

How the results depend on the processing

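Under 8 alternatives and with each of 13 mice left out, 624 of 624 differences of Msln, Muc16, Bnc1, Upk3b, Upk1b and Lrrn4 stayed positive in E2, HD and MIX against CON, MIX against HD and the pellet average. All are refits of the same mice, many leave out a mouse outside the groups compared, and the comparisons share groups. The count is therefore not one of independent results. No member passed the threshold except Bnc1 in the pellet average without MIX replicate 1 (1.067, adjusted p = 0.044 in limma). Differences near 0 turned. With array weights Wt1 was at -0.054 (MIX minus CON), -0.340 (MIX minus E2) and -0.282 (interaction), and with array medians subtracted the interaction of Upk1b was 0.068. Leaving out 1 mouse gave ranges for Wt1 of -0.024 to 0.365 (E2 minus CON), -0.323 to 0.017 (HD minus CON), -0.051 to 0.705 (MIX minus CON, lowest without MIX replicate 2), -0.296 to 0.617 (MIX minus E2) and -0.178 to 0.735 (interaction). For the interaction they were -0.551 to 0.085 (Msln), -0.230 to 0.122 (Upk3b), -0.258 to 0.260 (Upk1b) and -0.565 to 0.062 (Lrrn4). The cause was not tested.

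Counts of features called in MIX minus CON, MIX minus HD and the pellet average were 2, 3 and 11. Without the code style term the first 2 were 15 and 12, with 1 in MIX minus E2. With array weights they were 13 and 7, without dim features 11 and 6, and with only the groups compared 0 and 0. Subtracted medians gave 5 in MIX minus CON, and an intensity trend gave 6 in the pellet average. Leaving out 1 mouse gave 0 to 89 (MIX minus CON, most without MIX replicate 2), 0 to 80 (MIX minus HD) and 0 to 224 (pellet average, both most without MIX replicate 1), 0 to 24 (MIX minus E2) and 0 to 2 (interaction). The array medians themselves differed by -0.12 in MIX minus HD and -0.11 in the interaction, as plain differences of group means. Subtracting them raised the fitted differences, which carry the code style term, by other amounts. The interaction of Upk1b, for instance, went from -0.013 to 0.068. Each symbol had 1 feature, so averaging features changed nothing.

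The replicate numbers did not pair the mice (18 same-numbered pairs, 5 with r over 0.1, r from -0.26 to 0.31). With the replicate block 0, 0 and 0 features were called in MIX minus CON, MIX minus HD and the pellet average. Under the block Upk3b was at -0.213 in MIX minus E2 and Upk1b at 0.023 in the interaction. It also lowered Muc16 to 0.584 in MIX minus CON, 0.332 in MIX minus HD, -0.848 in MIX minus E2 and -1.099 in the interaction, and Upk3b to 0.423 in MIX minus HD.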
